A study of Homo sapiens with 12 samples.

Results

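The cytosolic ribosomal protein genes encode the proteins that, with ribosomal RNA, build the large (RPL) and small (RPS) subunits of the ribosome outside the mitochondria. Members were taken by name and type, as protein-coding rows whose symbol begins with RPL or RPS and continues with a number, P0, P1, P2 or A. This gave 85 of 32152 gene rows, 53 of the large and 32 of the small subunit, under 84 symbols, since RPL41 has 2 rows. Of these, 84 rows passed the filter on low values (RPKM 0.5 or more in 2 or more of the libraries) and were tested with the other genes, 13737 in all, whereas RPL3L, with 0 to 1 read in each library, did not. The tested rows comprised 78 core genes and 6 paralogues, which are second gene copies with names ending in L or L1.

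RNA came from MDA-MB-231 and from Hs-578T, established triple-negative breast cancer cell lines, and was sequenced as 12 libraries. Each line gave 2 libraries of unmodified parental cells, 2 labelled ERK5-ko, in which Cas9 was guided to MAPK7, the gene of the kinase ERK5, and 2 labelled MEK5DD, which carry MEK5, the kinase that activates ERK5, in a constitutively active version. All cells were grown with serum and insulin. The comparisons ask how ribosomal protein mRNA differed between each engineered culture and its parental cells, and between the lines.

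The MDA-MB-231 ERK5-ko culture was the single clone that survived sorting, and which clone of Hs-578T was sequenced is not given in the sources used here. MDA-MB-231 libraries were of passages 29 and 30 (parental), 7 and 8 (ERK5-ko) and 10 and 11 (MEK5DD). Hs-578T libraries were of passages 83 and 84 (parental), 8 and 9 (ERK5-ko) and 8 and 9 (MEK5DD). By the authors' account, the ERK5-ko lines were made from cells of higher passage numbers than the ERK5-ko libraries carry. The numbers of parental and ERK5-ko-labelled libraries thus cannot count from the same start. In every comparison with parental cells, passage number and genotype cannot be told apart. The replicates are consecutive passages of a culture, so that p-values measure the spread between passages and not between independent clones.

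Each ribosome holds 1 copy of nearly every ribosomal protein, and proliferating cells make these proteins from abundant, short mRNAs. Most of these mRNAs begin with a 5′ terminal oligopyrimidine (TOP) tract, a C followed by a run of C and U, through which mTORC1 and the RNA-binding protein LARP1 regulate their translation. Transcription of ribosomal RNA by RNA polymerase I and the nucleolar assembly factors supply the other parts of the particle. A few members exist as a main form and a paralogue that can take its place in the ribosome, such as RPL39 and RPL39L or RPL22 and RPL22L1.

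The start sites are shown for members that the results below turn on, because the TOP tract is what most ribosomal protein genes have in common in sequence. Each line gives 30 bases of the transcript strand in RefSeq GRCh38.p14, from 15 bases before the annotated start to 15 bases from it, with capitals for the run of C or T nearest the start. RPS18 (chr6:33272060-33272089, plus strand), the highest member, RPL28 (chr19:55385917-55385946, plus strand), and RPL39 (chrX:119791616-119791645, minus strand) start within such a run. RPL22 (chr1:6199581-6199610, minus strand) and its paralogue RPL22L1 (chr3:170870181-170870210, minus strand) do so as well. RPL10 (chrX:154398050-154398079, plus strand), RPL13 (chr16:89560642-89560671, plus strand), RPL7L1 (chr6:42879601-42879630, plus strand) and RPL26L1 (chr5:172958714-172958743, plus strand) have shorter runs.
RPS18: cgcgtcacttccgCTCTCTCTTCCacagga
RPL28: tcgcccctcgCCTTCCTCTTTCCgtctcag
RPL39: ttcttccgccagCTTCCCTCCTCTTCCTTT
RPL22: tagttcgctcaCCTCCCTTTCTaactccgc
RPL22L1: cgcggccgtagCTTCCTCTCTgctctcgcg
RPL10: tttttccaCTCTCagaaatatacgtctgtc
RPL13: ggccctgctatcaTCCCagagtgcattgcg
RPL7L1: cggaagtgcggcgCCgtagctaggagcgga
RPL26L1: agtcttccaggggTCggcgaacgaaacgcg

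A C at the annotated start followed by at least 4 bases of C or T, read on the transcript strand only, was found in 43 of the 67 member symbols that have a RefSeq promoter entry (64.2%), against 1429 of 35116 promoters of all genes (4.07%). Within 5 bases of the start it was found in 51 members (76.1%) and in 21.1% of all promoters. The run of pyrimidines at the start had a median length of 11 bases in members and 4 in all promoters. TATAAA, on the same strand in the 50 bases before the start, was found in 4 members (5.97%) and in 924 promoters (2.63%). Among the paralogues with an entry, RPL22L1 holds the tract at the annotated start and RPL10L, RPL26L1, RPL7L1 and RPS27L do not. The other 17 symbols, RPL39L among them, had no entry and were not searched.

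Levels are given as deposited in RPKM, which are reads scaled to the length of the gene model and to the library total. The library totals recovered from the values were between 20248162 and 27791195 reads, of which 92.0% to 94.5% fell on listed genes. MAPK7 RPKM was 13.3 and 14.3 in MDA-MB-231 parental libraries, 16.3 and 17.8 in those labelled ERK5-ko, and 14.8 and 15.8 in MEK5DD. In Hs-578T it was 13.97 and 16.0, 17.8 and 18.1, and 16.1 and 17.5 in the same order. MAPK7 RNA was thus not lower in either library labelled ERK5-ko than in its parental cells, and these libraries are named by their label throughout. The authors report from Western blots that both knockout lines held far less ERK5 protein than the unmodified cells. RNA level does not measure protein, so the MAPK7 values do not show that the knockout failed. Whether the gene was edited in the sequenced cells was not tested. MAP2K5, the gene of MEK5, was at 12.9 and 13.6 in MDA-MB-231 parental and 188 and 184 in MEK5DD libraries, but at 14.6 and 16.9 in Hs-578T parental and only 21.3 and 23.8 in MEK5DD libraries. The defining markers of the triple-negative label, ESR1 and PGR, stayed at or below 0.35 in all 12 libraries, while ERBB2 was at 27.8 to 56.8. VIM was at 1598 or above, CDH1 at 1.16 or below and the leukocyte marker PTPRC at 0.40 or below in all 12. Not every marker looked up as low or absent was so. The epithelial marker EPCAM was at 7.08 to 25.7 in MDA-MB-231 libraries and at 0.0862 or below in those of Hs-578T. The endothelial marker PECAM1 was at 2.81 to 6.48 in Hs-578T libraries and at 0.841 or below in those of MDA-MB-231.

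Ribosomal protein mRNAs were among the most abundant in both lines. Of the 50 protein-coding genes with the highest mean RPKM over the 12 libraries, 9 were members, and of the highest 200, 52 were. The median member had a mean of 518 RPKM, against 14.9 for the other tested genes, and 76 of the 78 core rows exceeded 100 RPKM. Among the highest means were those of RPS18 (1939), RPL8 (1558), RPL13A (1400) and RPLP0 (1368).

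The lowest tested members were mostly paralogues. RPS27L had a mean of 32.9, RPL39L of 28.998, RPL22L1 of 26.9 and RPL10L of 0.529 RPKM. A second row named RPL41 (ENSG00000279483.1, on chromosome 7) had a mean of 1.10, whereas the chromosome 12 row of RPL41 had a mean of 884. Above the chromosome 7 row of RPL41, the lowest core rows were RPS26 at 82.9 and RPS29 at 100.2 RPKM. Processed pseudogenes carry sequences close to those of members, and 475 rows are named as such. Only 91 of them reached 0.5 RPKM, and they took between 0.0172% and 0.0404% of a library's reads. How reads that match both a gene and a pseudogene were assigned is not given in the sources used here, and 37 members overlap another listed gene on their strand, 26 of them a snoRNA in an intron.

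Members took 3.296% and 3.29% of the reads in MDA-MB-231 parental, 3.35% and 3.63% in ERK5-ko-labelled and 4.06% and 4.07% in MEK5DD libraries. In Hs-578T they took 5.57% and 4.31% in parental, 4.17% and 4.10% in ERK5-ko-labelled and 6.50% and 4.45% in MEK5DD libraries. MDA-MB-231 MEK5DD libraries were thus above both parental libraries without overlap, and all Hs-578T libraries were above every MDA-MB-231 library. Hs-578T parental 1 and MEK5DD 1 stood apart from their own replicates. With 2 libraries a group, 0.333 is the smallest two-sided p that an exact permutation test allows, and these shares were not tested.

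**Figure D1:**
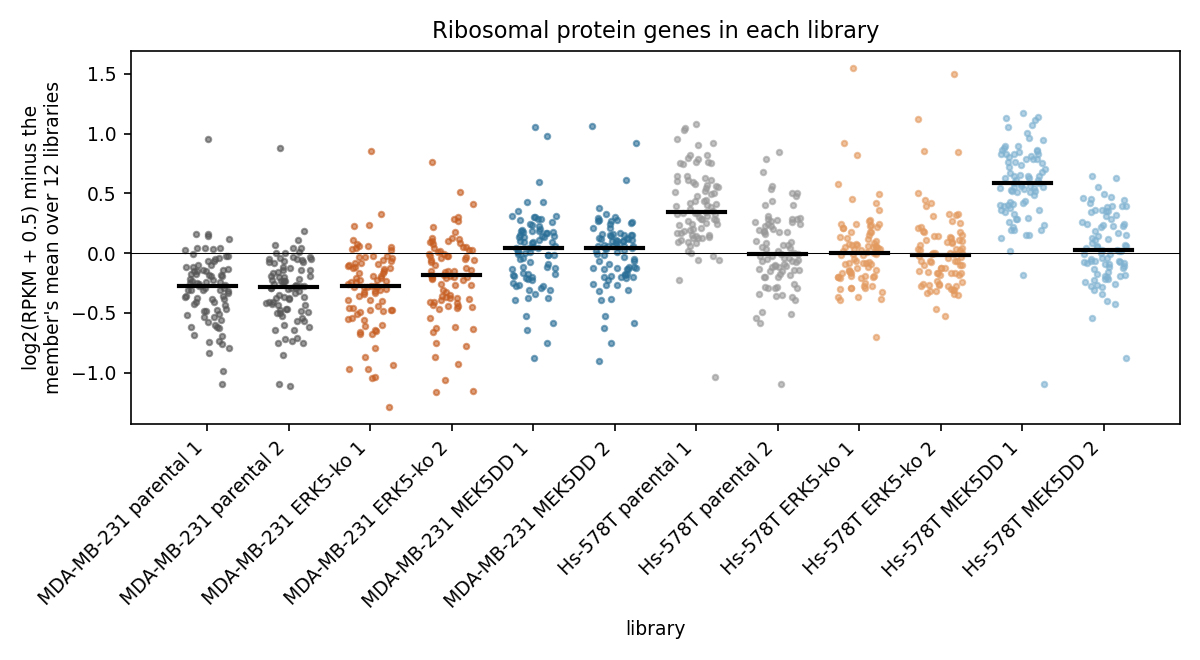
The vertical axis is log2(RPKM + 0.5) of each of the 84 tested ribosomal protein genes minus that gene's mean over the 12 libraries, which stand along the horizontal axis. The members' median was 0.35 in Hs-578T parental 1 and 0.59 in Hs-578T MEK5DD 1, and between −0.28 and 0.05 in the other 10 libraries.

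Both of these Hs-578T libraries also differed from the rest in how levels followed gene length. Members are short, with a median gene model of 875 bases against 1578 for the other tested genes, so that a trend with length moves them together. Over tested genes that are not members, the slope of a gene's log2 deviation on log2 length was −0.160 in Hs-578T parental 1 and −0.155 in Hs-578T MEK5DD 1, and between −0.019 and 0.064 in the other 10 libraries. Between replicates of a group, the members' median was lower in replicate 2 by 0.35 in Hs-578T parental and by 0.54 in Hs-578T MEK5DD cells (82 and 81 of 84 members lower), although no label separates these replicates but the passage. Other genes of over 500 and up to 1000 bases differed by −0.15 and −0.17 between the same replicates. A length trend fitted to all tested genes, members included, and removed from each library left member differences of −0.19 and −0.33. In the MDA-MB-231 parental, MDA-MB-231 MEK5DD and Hs-578T ERK5-ko-labelled groups, the members' median differed between replicates by at most 0.02, and by 0.10 under the ERK5-ko label in MDA-MB-231. In bulk RNA, more ribosomal protein mRNA per cell and a larger share of cells rich in it cannot be told apart.

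In MDA-MB-231 cells, ribosomal protein mRNAs were shifted upward with MEK5DD. The median log2 fold change of the 84 tested members was 0.32, against −0.01 over all tested genes, and 76 members had positive and 8 negative values. Of these, 18 rose at an adjusted p under 0.05 (limma over all tested genes with Benjamini-Hochberg adjustment), or 21.4% of members beside 17.5% of all tested genes. Only 2 members fell, or 2.38% beside 23.8%. The 18 were 12 of the large and 6 of the small subunit, and the median was 0.31 in the large and 0.33 in the small subunit.

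RPL39L (ENSG00000163923.9, chromosome 3, 187120948 to 187180908), a paralogue of RPL39 with high expression in the testis, changed most. Its RPKM was 27.0 and 26.4 in parental and 55.0 and 55.4 in MEK5DD libraries, a log2 fold change of 1.03 (SE 0.145, adjusted p = 0.000156, limma), or 2.05-fold. RPL13 (ENSG00000167526.13, chromosome 16, 89560657 to 89566828), a large subunit protein, rose from 241 and 246 to 407 and 430 RPKM (log2 fold change 0.78, SE 0.143, adjusted p = 0.00101, limma). RPL10 (ENSG00000147403.16, chromosome X, 154389955 to 154409168), which lies near the catalytic centre of the large subunit, rose from 505 and 507 to 824 and 806 RPKM (log2 fold change 0.69, SE 0.136, adjusted p = 0.00178, limma). In each of these genes the MEK5DD values lay above the parental values by many times the gap between replicates.

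Among the other members that rose, RPL28 went from 185 and 206 to 293 and 336 RPKM and RPL23 from 324 and 313 to 464 and 448. RPS6, the substrate of the S6 kinases, went from 638 and 583 to 926 and 928 RPKM, and RPS20 from 202 and 199 to 287 and 299. These 4 and RPL4, RPL7, RPL8, RPL21, RPL26, RPL26L1, RPL36A, RPS2, RPS25 and RPS27A were among those that rose and had log2 fold changes between 0.40 and 0.68. RPL39L, RPL13, RPL10, RPL28, RPL23 and RPL4 kept their calls when any 1 of the 12 libraries was left out. The genes outside the rule for named genes in this paragraph were listed after their values were seen.

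RPL39 and RPL17 were the members that fell. RPL39 (ENSG00000198918.7, chromosome X, 119786504 to 119791643), which lines the exit tunnel of the nascent protein, was at 484 and 492 RPKM in parental and 300.2 and 287 in MEK5DD libraries (log2 fold change −0.73, SE 0.269, adjusted p = 0.0481, limma). RPL17 was at 472 and 454 in parental and 330 and 324 RPKM in MEK5DD libraries (log2 fold change −0.50, adjusted p = 0.0306, limma). The next most negative value was that of RPL6, −0.22 (adjusted p = 0.157, limma). RPL39 and RPL17 each lost the call when either library of the groups compared was left out, with adjusted p up to 0.169 and 0.134, and RPL39 also without any 1 library labelled ERK5-ko of either line. RPL17 overlaps the row of the readthrough gene RPL17-C18orf32, and its reads may be split with it.

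Other genes of the same length had medians near 0 in this comparison. Among genes of over 500 and up to 1000 bases, the median was 0.34 over 61 members and 0.02 over 2028 other genes, and among those above that and up to 1500 bases it was 0.31 over 15 members and −0.00 over 4116 others. With the length trend taken out of each library, the members' median was 0.29, with 37 members higher (44.0%, beside 19.5% of all tested genes) and 3 lower (3.57%, beside 25.6%). The members' median stayed between 0.32 and 0.33 with any 1 library left out. The count of called members depended on the estimate of spread, which all 12 libraries share and to which the divergent Hs-578T libraries contribute. With the replicate number as a block, 47 members were higher (56.0%, beside 21.2% of all tested genes), including all 18. In a fit of only the libraries compared, 65 were higher (77.4%, beside 26.0%). The count was smaller without any 1 of the MDA-MB-231 parental or MEK5DD libraries, and larger without either Hs-578T MEK5DD library. Shares of all tested genes in fits with 1 library left out are not given here. A changed count in such a fit therefore need not concern members alone.

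**Figure D2:**
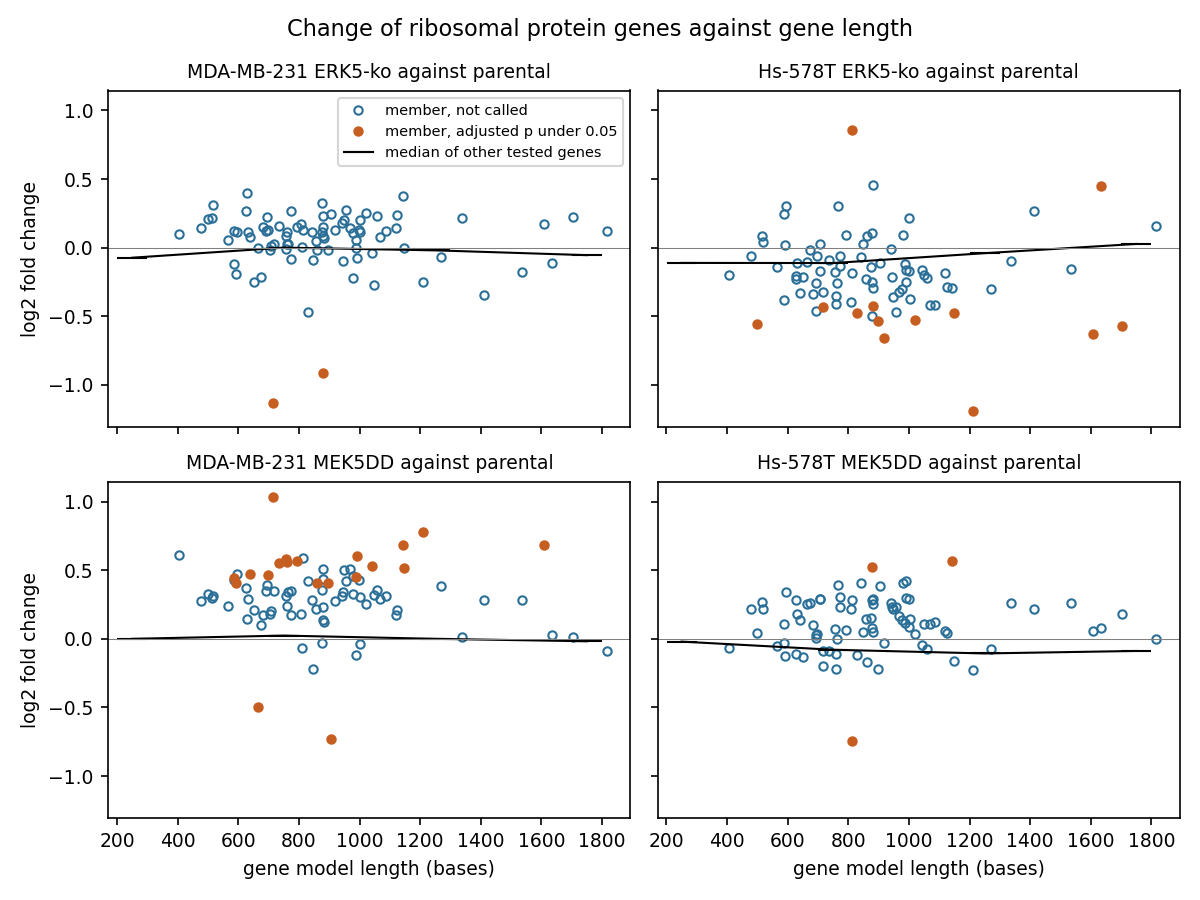
Each panel shows 1 of 4 comparisons with parental cells, with the log2 fold change of every tested member against the length of its gene model in bases, filled where the adjusted p was under 0.05. The line joins the medians of other tested genes in length classes, which were 0.02 between 500 and 1000 bases for MDA-MB-231 MEK5DD, where the members' median was 0.34.

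Under the ERK5-ko label in MDA-MB-231 cells, the 2 members that passed the test were both paralogues, and both fell. The median log2 fold change was 0.11 over the 84 members and −0.04 over all tested genes. By limma, 0 members rose, beside 6.91% of all tested genes, with 4 at an unadjusted p under 0.05 and 0 by limma voom on the recovered reads. RPL39L and RPL22L1 fell, 2.38% of members beside 10.4% of tested genes. With the replicate block, 2 rose (2.38%, beside 10.1% of all genes) and 4 fell (4.76%, beside 14.9%).

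RPL39L went from 27.0 and 26.4 RPKM in parental to 12.5 and 11.4 in ERK5-ko-labelled libraries, a log2 fold change of −1.13 (SE 0.145, adjusted p = 0.000397, limma), or 54.3% lower. RPL22L1 (ENSG00000163584.17, chromosome 3, 170864875 to 170870483), the paralogue of RPL22, went from 19.9 and 19.6 to 9.76 and 10.7 RPKM (log2 fold change −0.92, SE 0.189, adjusted p = 0.00673, limma). Its call was lost without ERK5-ko-labelled library 1 or parental library 1 (adjusted p up to 0.0581). The values of each paralogue did not overlap between the groups.

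The core genes with the most extreme values did not pass the test in the fit of all 12 libraries without the block. RPL24 had a log2 fold change of −0.47 (adjusted p = 0.0701 by limma, 0.0289 with the block), and RPS12, RPL10 and RPLP0 had values of 0.40, 0.38 and 0.33 (adjusted p = 0.157, 0.0813 and 0.385, limma), of which RPL10 passed with the block (adjusted p = 0.0247). RPL24 was at 356 and 354 RPKM in parental and 250 and 261 in the ERK5-ko-labelled libraries, without overlap. ERK5-ko-labelled library 2 lay above library 1 in 69 of 84 members, and without it the members' median was 0.04. The counts depended on the shared estimate of spread, since without Hs-578T parental 1 and MEK5DD 1 there were 18 members higher (21.4%, beside 13.6% of all tested genes) and 9 lower (10.7%, beside 20.4%), RPL24, RPL10, RPS12 and RPLP0 among them (adjusted p up to 0.0182, limma).

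In Hs-578T libraries labelled ERK5-ko, most members had lower values than in parental cells. The median log2 fold change was −0.20, against 0.01 over all tested genes, and 66 of 84 were negative. By limma, 11 members fell, or 13.1% beside 19.7% of all tested genes, and 2 rose, or 2.38% beside 19.7%. The order of the lower shares was the reverse with the replicate block, with 24 members lower (28.6%, beside 23.1% of all tested genes).

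RPL13 fell furthest, from 675 and 557 RPKM in parental to 285 and 252 in ERK5-ko-labelled libraries, a log2 fold change of −1.19 (SE 0.143, adjusted p = 7.54e-05, limma), or 56.3% lower. RPL12 (ENSG00000197958.12, chromosome 9, 127447674 to 127451405), which sits at the base of the stalk that recruits elongation factors, fell from 957 and 864 to 589 and 563 RPKM (log2 fold change −0.66, adjusted p = 0.00238, limma). RPL28 fell from 547 and 449 to 333 and 307 RPKM (log2 fold change −0.63, adjusted p = 0.00718, limma). In all 3 genes both ERK5-ko-labelled values lay below both parental values.

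The other members that fell were RPL37, RPS27, RPS2, RPS28, RPL24, RPL23, RPL39L and RPL10A, with log2 fold changes from −0.57 to −0.43. The 2 that rose were paralogues. RPL7L1, which is thought to act in the nucleolus rather than in the finished ribosome, went from 80.8 and 77.5 to 102 and 115 RPKM (log2 fold change 0.45, SE 0.0993, adjusted p = 0.00423, limma). RPL10L, an intronless copy of RPL10 known from the testis, went from 23 and 9 reads to 42 and 37 reads (0.536 to 1.97 RPKM over the 4 libraries, adjusted p = 0.00457, limma). RPL22L1 had a value of 0.46 (adjusted p = 0.0743, limma), with 33.3 and 24.4 in parental and 34.8 and 44.5 RPKM in the libraries labelled ERK5-ko.

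Hs-578T parental 1 carried much of the general shift. Without it, the members' median was −0.04, whereas without Hs-578T parental 2 the median was −0.38. Fewer members passed as lower without parental 1 or either ERK5-ko-labelled library, and more without parental 2 or either MEK5DD library. With the length trend removed the median was −0.09, and 12 members fell (14.3%, beside 20.8% of all tested genes), including all 11. RPL12, RPL13, RPL23 and RPL10L kept their calls with any 1 library left out.

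In Hs-578T cells with MEK5DD, few members passed the test, and the spread between replicates was large. Between libraries of the same replicate number, the members' median deviation was 0.59 in MEK5DD and 0.35 in parental replicate 1, and 0.03 and −0.01 in replicate 2, so that the MEK5DD library was the higher one of each pair. The median log2 fold change was 0.11 (−0.08 over all tested genes), with 61 positive and 23 negative values. RPL10 and RPL34 rose, 2.38% of members beside 6.44% of tested genes, and RPL10L fell, 1.19% beside 17.0%. RPL10 was at 945 and 713 RPKM in parental and 1335 and 1106 in MEK5DD libraries (log2 fold change 0.57, SE 0.136, adjusted p = 0.0121, limma), and was the only member that rose with MEK5DD in both lines. RPL34, a large subunit protein, was at 151 and 121 in parental and 235 and 161 RPKM in MEK5DD libraries (log2 fold change 0.52, adjusted p = 0.0311, limma). RPL10L was counted at 23 and 9 reads in parental and 4 and 6 in MEK5DD libraries (log2 fold change −0.75, adjusted p = 0.0164, limma). It passed the filter on low values only through Hs-578T parental and ERK5-ko-labelled libraries, being at 0.244 and 0.361 RPKM with MEK5DD. This call therefore does not stand as support for a fall.

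The values of the other extremes were 0.42 for RPL31, −0.23 for RPL13 and −0.22 for RPS2, with adjusted p = 0.197, 0.285 and 0.254 by limma. The result turned on single libraries. Without MEK5DD library 1 the members' median was −0.16, and without MEK5DD library 2 it was 0.39. Without parental 1 it was 0.27 and without parental 2 it was −0.05. Each of the 3 calls was lost without some library. Limma voom on the recovered reads gave 2 higher and 0 lower, and limma on only the libraries compared called 0 in either direction, where the fit of all 12 had 2 higher and 1 lower also at an unadjusted p under 0.05.

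**Figure D3:**
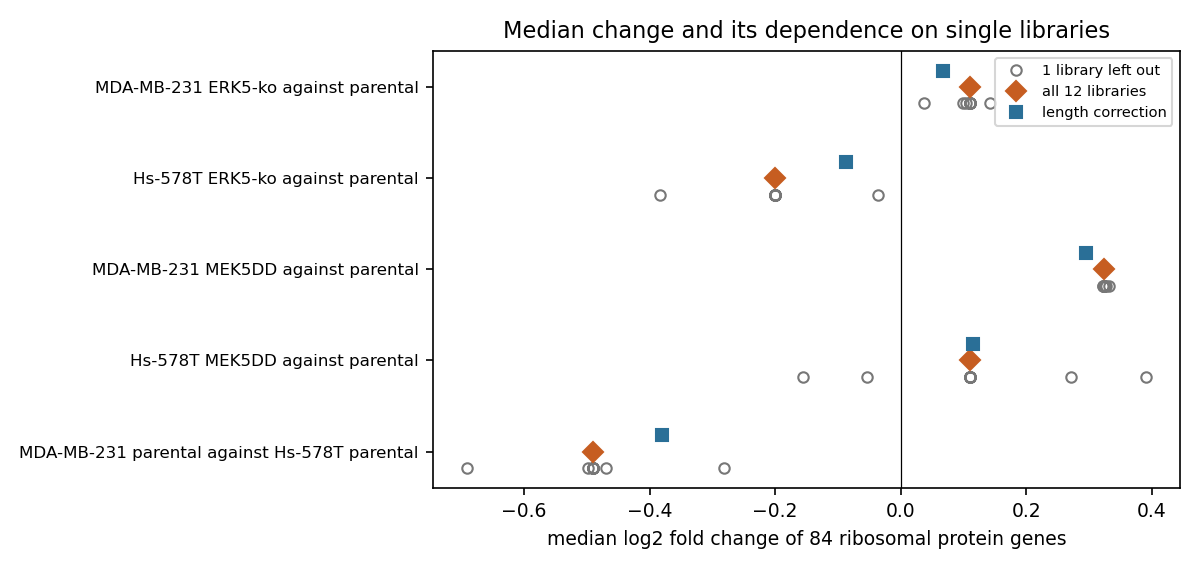
The horizontal axis is the median log2 fold change of the 84 tested ribosomal protein genes in 5 comparisons, with diamonds for all 12 libraries, squares for values corrected for gene length and open circles for fits with 1 library left out. The circles of MDA-MB-231 MEK5DD lie between 0.32 and 0.33, and those of Hs-578T MEK5DD between −0.16 and 0.39.

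The change under each label was tested for a difference between the lines as the MDA-MB-231 value minus the Hs-578T value. For the ERK5-ko label, 11 members were higher in this difference (13.1%, beside 18.3% of all tested genes) and 5 lower (5.95%, beside 21.5%). RPL22L1 had the most negative difference, −1.37 (SE 0.267, adjusted p = 0.00202, limma), with log2 fold changes of −0.92 for MDA-MB-231 and 0.46 for Hs-578T. RPL13 differed by 0.95 (adjusted p = 0.00352, limma) and RPL12 by 0.79 (adjusted p = 0.00667, limma), both through the lower Hs-578T values. The other 4 members with a negative difference were RPL10L, RPL39L, RPL7L1 and RPL14, so that 4 of the 6 paralogues and 1 of the 78 core genes were in this group. RPL10L had 0 or 1 read in each MDA-MB-231 library, so its difference rests on the Hs-578T change alone. Of these 5, RPL22L1 and RPL7L1 kept the call with any 1 library left out. RPL10L, RPL39L and RPL14 lost it without Hs-578T ERK5-ko 2 or MDA-MB-231 parental 2, RPL39L and RPL10L also without MDA-MB-231 parental 1 or ERK5-ko 2, and RPL10L also without Hs-578T ERK5-ko 1 or parental 2. With the replicate block, 27 were higher (32.1%, beside 21.6% of all genes). With 1 library left out, the count of higher members was largest without either Hs-578T MEK5DD library. It was smallest without MDA-MB-231 parental 1, MDA-MB-231 ERK5-ko 2 or Hs-578T ERK5-ko 2.

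For MEK5DD, 8 members were higher in the difference (9.52%, beside 21.3%) and 2 lower (2.38%, beside 18.2%). RPL39L differed by 1.23 (SE 0.205, adjusted p = 0.000711, limma), RPL13 by 1.01 (adjusted p = 0.00229, limma) and RPL23 by 0.68 (adjusted p = 0.00469, limma). RPL39 differed by −1.12 (adjusted p = 0.0363, limma) and RPL17 by −0.75 (adjusted p = 0.0245, limma). With the replicate block, 16 were higher (19.0%, beside 25.6%). Fits without Hs-578T MEK5DD 1 or Hs-578T parental 2 had more members higher than the fit of all 12 libraries. Those without Hs-578T parental 1, MDA-MB-231 parental 2 or MDA-MB-231 MEK5DD 1 had fewer. RPL39L, RPL13 and RPL23 kept their calls in each of these fits, whereas RPL39 and RPL17 did not.

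The paralogues were therefore compared with their main forms library by library. RPL39L was present at 5.58% and 5.38% of the RPKM of RPL39 in MDA-MB-231 parental libraries. This share was 2.31% and 1.85% in libraries labelled ERK5-ko, and 18.3% and 19.3% in MEK5DD libraries, where RPL39L rose while RPL39 fell. In Hs-578T the share was 5.95% and 9.70% in parental, 5.63% and 6.46% in ERK5-ko-labelled and 4.49% and 5.70% in MEK5DD libraries. The 3 MDA-MB-231 groups did not overlap, whereas the Hs-578T groups did. Both MDA-MB-231 comparisons share their parental libraries, and RPL39L and RPL39 were otherwise at 31.4 and 29.7 and at 527 and 306 RPKM in Hs-578T parental cells.

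RPL22L1 was present at 8.12% and 8.202% of RPL22 in MDA-MB-231 parental, 3.51% and 3.86% in ERK5-ko-labelled and 12.1% and 10.8% in MEK5DD libraries. In Hs-578T it was at 9.01% to 17.7%. RPL22, the main form, stayed between 229 and 301 RPKM in all 12 libraries and passed the test in no comparison with parental cells, the values being 0.20 and −0.04 in MDA-MB-231 ERK5-ko-labelled and MEK5DD libraries (adjusted p = 0.122 and 0.758, limma). RPL22L1 in MDA-MB-231 MEK5DD libraries was at 29.4 and 24.7 RPKM (log2 fold change 0.44, adjusted p = 0.0849, limma).

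RPL7L1 stood out by line. It was at 163% to 219% of the RPKM of RPL7 in the 6 MDA-MB-231 libraries and at 13.2% to 19.2% in the 6 Hs-578T libraries, with no overlap. RPL26L1 was at 5.28% to 7.69% of RPL26 over all 12 libraries. RPS27L, which is induced by p53 in many cells, was at 3.75% to 8.92% of RPS27 and passed the test, of all 7 comparisons, only between the parental lines (log2 fold change −0.47, adjusted p = 0.0446, limma), a call that was lost with single libraries left out. RPL10L was at most 0.295% of RPL10, and RPL3L at most 0.00378% of RPL3.

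**Figure D4:**
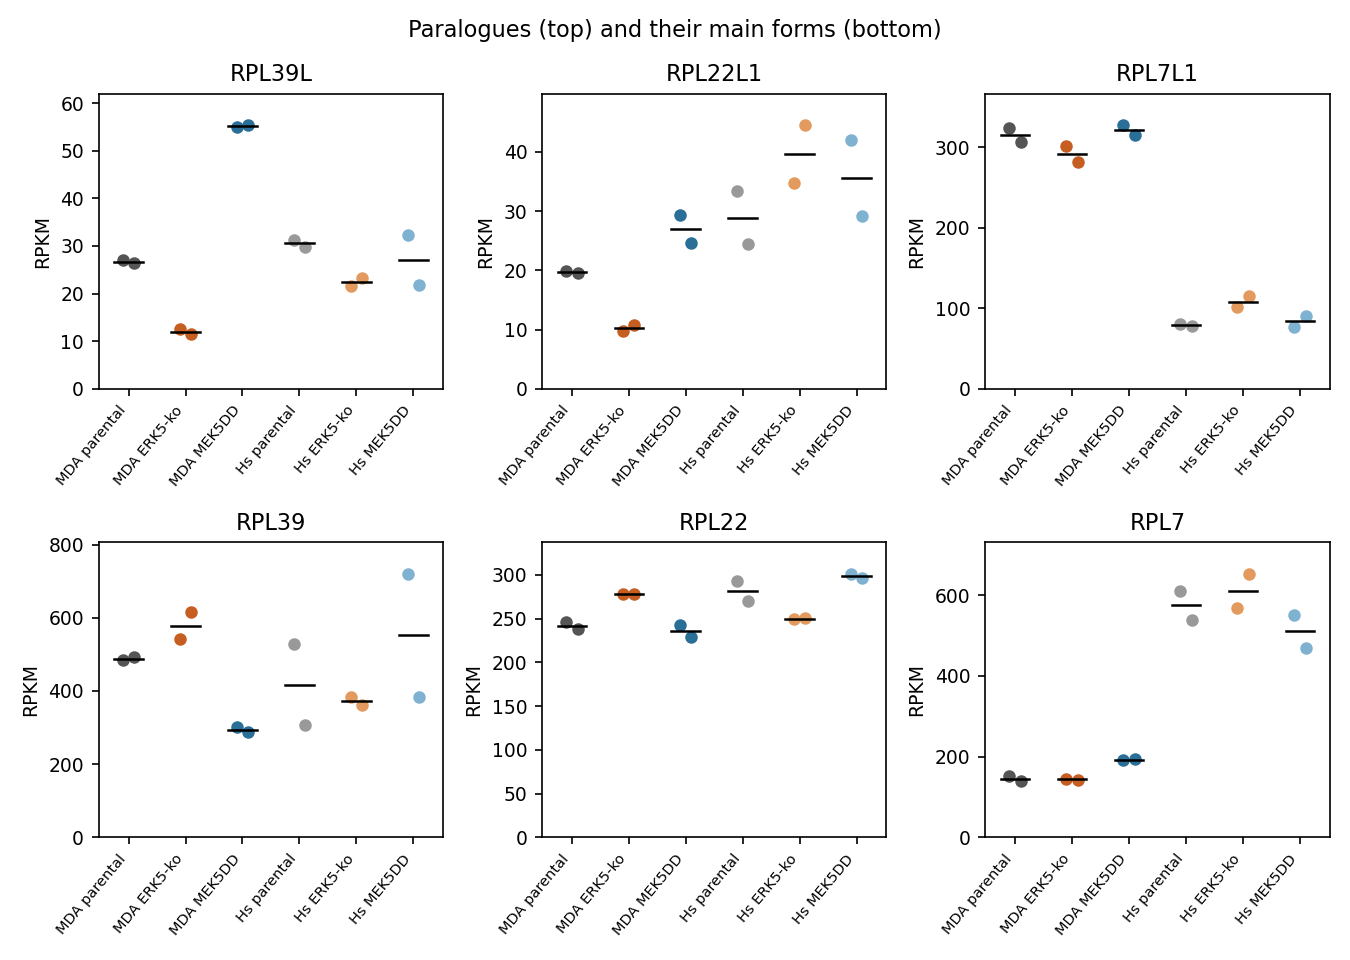
RPKM of paralogues in the upper row and of their main forms in the lower row, with 1 point per library, a bar at the mean, and the 6 groups along the horizontal axis, where MDA stands for MDA-MB-231 and Hs for Hs-578T. RPL39L was at 26.4 and 27.0 in MDA-MB-231 parental, 11.4 and 12.5 in ERK5-ko-labelled and 55.0 and 55.4 in MEK5DD libraries, while RPL39 in MDA-MB-231 was lowest in MEK5DD libraries, at 287 and 300.2.

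The P stalk, made of RPLP0 and the acidic proteins RPLP1 and RPLP2, recruits translation factors to the ribosome. In the fit without the block, none of the 3 passed the test in any of the 4 comparisons with parental cells, but several values of RPLP1 and RPLP2 did so with the replicate block. RPLP2 was at 648 and 633 RPKM in MDA-MB-231 parental, 753 and 837 in ERK5-ko-labelled and 788 and 804 in MEK5DD libraries, and neither engineered group overlapped the parental one. Its log2 fold changes were 0.31 under the ERK5-ko label (adjusted p = 0.111 by limma, 0.0359 with the block and 0.025 with length correction) and 0.31 with MEK5DD (adjusted p = 0.0612 by limma, 0.0181 with the block). RPLP1 had values of 0.42 in MDA-MB-231 MEK5DD and −0.47 in Hs-578T ERK5-ko-labelled libraries (adjusted p = 0.0987 and 0.0701 by limma, 0.0148 and 0.00905 with the block). RPLP0 was at 1176 and 1217 RPKM in MDA-MB-231 parental, 1376 and 1636 in ERK5-ko-labelled and 1164 and 1182 in MEK5DD libraries. In Hs-578T it was at 1755 and 1099, 1235 and 1104, and 2143 and 1333 in the same order, so that the spread within parental and MEK5DD groups exceeded the gap between them. RPLP1 was lower in MDA-MB-231 than in Hs-578T parental cells, with 460 and 480 against 1092 and 801 RPKM (log2 fold change −0.99, SE 0.191, adjusted p = 0.00052, limma). RPLP2, at 648 and 633 against 835 and 668, had a value of −0.22 (adjusted p = 0.12 by limma, 0.0486 with the block).

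Between the parental lines, ribosomal protein mRNAs were lower in MDA-MB-231 than in Hs-578T cells. The median log2 fold change of MDA-MB-231 against Hs-578T was −0.49 over members and 0.19 over all tested genes. By limma, 47 members were lower, or 56.0% beside 31.3% of all tested genes, and 2 were higher, or 2.38% beside 46.0%. Of the 47, 29 belonged to the large and 18 to the small subunit, and 33 kept the call with any 1 library left out. Scaling by the median ratio moved the members' median to −0.73, with 62 lower (73.8%, beside 38.9% of all tested genes) and 1 higher (1.19%, beside 37.0%). Quantile normalization gave a median of −0.34, with 43 lower (51.2%, beside 35.6%) and 10 higher (11.9%, beside 41.4%). Hs-578T parental 1 again weighed on the size, since the median was −0.28 without it and −0.69 without parental 2. The count of lower members also varied over such fits.

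Of the members that were lower in MDA-MB-231, RPS20 and RPL7, both on chromosome 8, differed most. RPS20 (ENSG00000008988.9), a small subunit protein of the head, was at 202 and 199 RPKM in MDA-MB-231 and 911 and 745 in Hs-578T parental libraries (log2 fold change −2.04, SE 0.136, adjusted p = 6.44e-08, limma). RPL7 (ENSG00000147604.13) was at 151 and 140 against 610 and 538 RPKM (log2 fold change −1.98, adjusted p = 1.22e-08, limma). For RPS20 and RPL7, the parental levels of the lines differed by several times the gap between replicates.

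The members that were higher in MDA-MB-231 were RPL7L1 and RPL34. RPL7L1 (ENSG00000146223.14, chromosome 6, 42879618 to 42889925) was at 324 and 306 against 80.8 and 77.5 RPKM (log2 fold change 1.99, SE 0.0993, adjusted p = 4.43e-09, limma), 3.96-fold, in the direction opposite to RPL7. RPL34 was at 191 and 182 against 151 and 121 RPKM (log2 fold change 0.46, adjusted p = 0.0169, limma), and its call was lost without MDA-MB-231 parental 1 or Hs-578T parental 2. RPL35 came next, with a value of 0.29 (adjusted p = 0.174, limma). RPL10L, counted among the 47 lower members, passed the filter on low values through Hs-578T libraries only. It had 0 or 1 read in each MDA-MB-231 library and 4 to 42 in those of Hs-578T, so no fold is given. The chromosome 7 row of RPL41 is also among the 47 lower members. It had only 9 and 4 reads in MDA-MB-231 and 13 and 13 in Hs-578T parental libraries.

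The members' position was set beside that of other genes. All 4 tested members on chromosome 8, RPL7, RPL8, RPL30 and RPS20, were lower in MDA-MB-231, with a median of −1.69. The other 476 tested genes of chromosome 8 had a median of −0.69, and 66.0% of them were lower. RPL8 and RPL30, named after their values were seen, had log2 fold changes of −1.37 and −1.40. On chromosome 22, the other 319 genes were about as low (median −0.64, 69.0% lower), and its 1 tested member, RPL3, had a value of −0.89. On chromosome 16, 3 members had a median of −1.23 and 614 other genes of −0.11, and on chromosome 19, 12 members had a median of −0.97 and 1034 other genes of −0.09. The members' median lay below that of the other genes on each of the 22 chromosomes that hold a tested member. Several of these hold only 1, and on chromosome 7 it is the second RPL41 row, with few reads in every library. The part that chromosome position had in the members' lower levels was not tested.

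**Figure D5:**
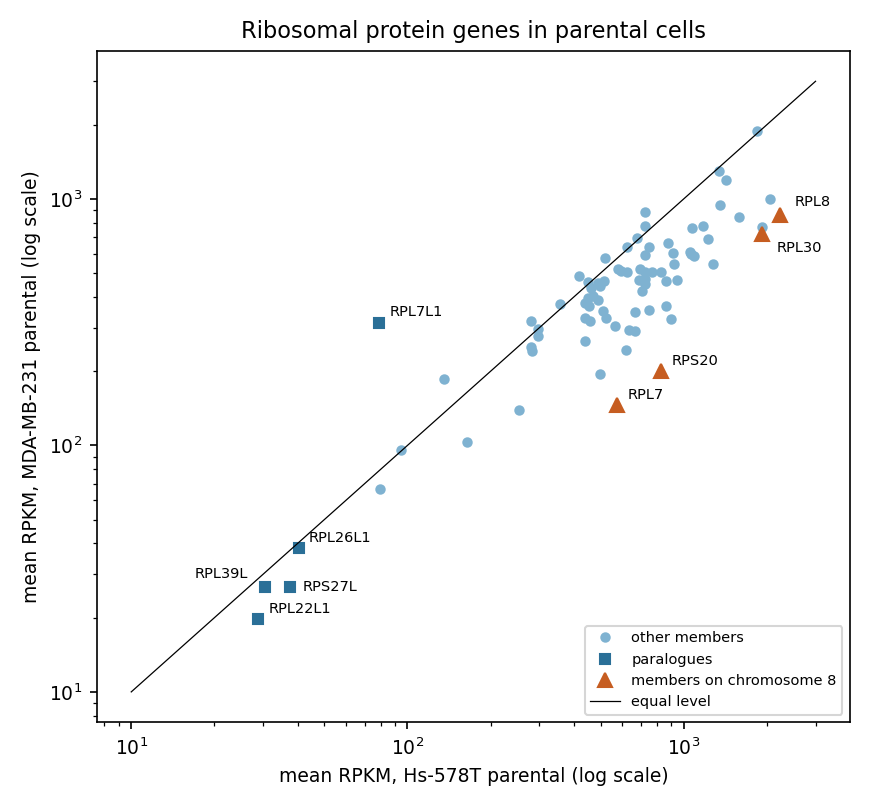
Mean RPKM of the members above 10 RPKM (leaving out RPL10L, RPL3L and the chromosome 7 row of RPL41) in the 2 MDA-MB-231 parental libraries (vertical axis) against that in the 2 Hs-578T parental libraries (horizontal axis), both on log scales, with a line of equal level. The 4 members on chromosome 8 lie below the line with a median log2 difference of −1.69, and RPL7L1 lies above it at 1.99.

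Length did not remove the difference between the parental lines. Among genes of over 500 and up to 1000 bases, the median was −0.40 over members and −0.01 over other genes, and above that and up to 1500 bases it was −0.66 and 0.10. After the length trend was taken out, the members' median was −0.38, with 46 lower (54.8%, beside 31.5% of all tested genes), 44 of them among the 47, and 5 higher (5.95%, beside 47.3%).

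Core members with the TOP tract at the annotated start (42 tested) and those with an entry but without it there (20) had similar medians in most comparisons. In MDA-MB-231 MEK5DD libraries both medians were 0.31, and in those labelled ERK5-ko they were 0.12 and 0.09. In Hs-578T they were 0.22 and 0.11 with MEK5DD, and −0.17 and −0.25 under the ERK5-ko label. Between the parental lines they were −0.25 with and −0.44 without the tract at the start. RPL13 and RPL10, among the members that moved most, lack the tract at the annotated start, whereas RPL28 and RPL39 have it there. Where the mRNAs start in these cells was not measured. Some of the 20, such as RPL3 and RPL4, have the tract within 5 bases of the annotated start. The grouping therefore does not separate mRNAs with the tract from mRNAs without it.

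Other genes of the translation machinery were taken as lists for comparison. Of 4 ribosomal proteins that the name rule left out, among them RPL36AL and GNB2L1, the older name of RACK1, 2 rose in MDA-MB-231 MEK5DD libraries, with a median of 0.31. GNB2L1 went from 1145 and 1217 to 1621 and 1710 RPKM (log2 fold change 0.50, adjusted p = 0.0209, limma). Under the ERK5-ko label, 0 of 4 passed in either line by limma (at an unadjusted p under 0.05, 0 for MDA-MB-231 and 2 lower for Hs-578T), the median being 0.11 for MDA-MB-231 and −0.29 for Hs-578T. With MEK5DD in Hs-578T 0 of 4 passed by limma, also without adjustment, with a median of −0.08. In parental cells, RPL36AL was higher in MDA-MB-231 than in Hs-578T (1.03), with 1 of the 4 higher, 2 lower and a list median of −0.52.

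The mRNAs of 15 other TOP genes, mostly elongation and initiation factors, were counted in the same way. In MDA-MB-231 MEK5DD libraries 11 rose and 1 fell, with a median of 0.42. EEF1B2, a subunit of the exchange factor of eEF1A, rose from 267 and 257 to 421 and 432 RPKM (log2 fold change 0.70, adjusted p = 0.00563, limma), and NAP1L1, a histone chaperone, fell by 0.35 on the log2 scale (adjusted p = 0.008, limma). In Hs-578T libraries labelled ERK5-ko 4 fell and 0 rose by limma, with 0 higher also at an unadjusted p under 0.05 and a median of −0.15. Of these, TPT1, the translationally controlled tumor protein, fell from 639 and 620 to 293 and 298 RPKM (log2 fold change −1.09, adjusted p = 9.1e-05, limma). The list had 0 calls in either direction by limma in the other 2 comparisons with parental cells (2 and 3 lower at an unadjusted p under 0.05), the median being 0.04 for MDA-MB-231 labelled ERK5-ko and −0.03 for Hs-578T MEK5DD. Of the 15, 10 had lower and 2 higher levels in MDA-MB-231 than in Hs-578T parental cells, with a median of −0.59, and EEF2, the translocation factor, was lowest at −1.76.

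RNA polymerase I subunits and ribosome assembly factors (52 tested) did not follow the ribosomal protein genes in each comparison. In MDA-MB-231 MEK5DD libraries 19 rose and 4 fell, with a median of 0.18, and RRS1, a factor of large subunit assembly, went from 9.37 and 9.22 to 24.6 and 23.3 RPKM (log2 fold change 1.32, adjusted p = 6.55e-06, limma). In Hs-578T libraries labelled ERK5-ko, where members had a median of −0.20, 21 of these factors rose and 4 fell, with a median of 0.25. Under the ERK5-ko label in MDA-MB-231 1 rose and 11 fell (median −0.18), and in Hs-578T MEK5DD libraries 1 rose and 12 fell (median −0.18). MDA-MB-231 parental cells had higher levels than Hs-578T parental cells for 31 of these factors and lower levels for 7, with a median of 0.43. Over all tested genes the median was 0.19, with 46.0% higher and 31.3% lower. The sign of these factors was thus that of tested genes in general, whereas that of the members was opposite.

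The regulators MYC, MAX, LARP1, mTOR complex genes, S6 kinases and 4E-BPs (11 of 12 tested) had 5 higher and 2 lower in MDA-MB-231 MEK5DD libraries, led by EIF4EBP1 at 0.59 (adjusted p = 0.00129, limma). In Hs-578T libraries labelled ERK5-ko 2 were higher, MYC at 0.49 and LARP1 at 0.65, and 3 were lower, with MAX at −0.51. By limma 0 passed under the ERK5-ko label in MDA-MB-231, also without adjustment, and 1 was higher and 1 lower in Hs-578T MEK5DD libraries. Between the parental lines 6 were higher and 2 lower.

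Mitochondrial ribosomal protein genes and respiratory chain subunit genes are also short and served as a comparison for length, with median gene models of 1051 and 763 bases. In MDA-MB-231 MEK5DD libraries, the median of 78 mitochondrial ribosomal proteins was 0.16 (18 higher, 4 lower) and that of 83 respiratory chain subunits was 0.06 (7 higher, 9 lower), beside 0.32 in the cytosolic members. Between the parental lines these medians were −0.05 and −0.16, beside −0.49. In Hs-578T libraries labelled ERK5-ko they were −0.05 and −0.14, beside −0.20, and in Hs-578T MEK5DD libraries −0.10 and −0.00, beside 0.11. For MDA-MB-231 labelled ERK5-ko they were 0.00 and 0.12, beside 0.11.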

How the data were processed

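The authors deposited RPKM values for 32152 genes in 12 libraries, which are reads scaled to gene model length and to the library total. Poly(A) RNA was made into stranded libraries. The submitters' processing notes name bcl2fastq, Trimmomatic 0.32, TopHat2 2.1.1, R 3.3.1, DESeq2 1.12.4 and GRCh38. The counting tool, the annotation release and the handling of reads that match several places are not given in the sources used here. Samples were grouped by the cell line and label of their titles, with 2 replicates per group, and 0 columns of values lacked a sample.

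Library totals and gene model lengths were solved from the RPKM values, and for all 32152 genes (100.0%) the values came out as whole reads within 0.004 reads. The filter kept 13737 protein-coding genes, each at RPKM 0.5 or more in 2 or more of the libraries. Their log2(RPKM + 0.5) values were fitted by limma 3.58.1 (R 4.3.3) with a mean for each of the 6 groups and a trend of variance on level. Fold changes are on this log2(RPKM + 0.5) scale, which understates the change of low genes. Adjusted p-values follow Benjamini-Hochberg over all tested genes of a comparison, and a gene was called at an adjusted p under 0.05. The fit was tested on simulated data. RPKM depth is limited by the read totals, and intervals or floors would cover counting error only.

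Alternatives changed the pseudocount, filter, scaling, gene types, call rule, libraries fitted and replicates kept, and added a replicate block, corrections for gene length and GC content, and limma voom on the recovered reads. The length correction removed a smooth trend fitted in each library to all tested genes, members included. The length correction with the block, and a fit without both Hs-578T libraries with the steepest length trend, were chosen after seeing the data. The replicate block takes same-numbered libraries of a line as paired. Their deviations from group means had correlations of 0.107 to 0.541 over the 6 pairs of groups of one line. The 0.541 was between Hs-578T parental and MEK5DD, which hold the divergent replicate 1 libraries, and the others were at most 0.187. Between groups of different lines the correlations were −0.418 to −0.0599, so values away from 0 also arose without pairing. The correlations thus do not establish that the numbers are paired.

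Named with values were the 5 highest and 5 lowest members, the 3 largest and 3 smallest changes per comparison, the 3 smallest adjusted p-values for a difference between lines, the paralogues with their main forms, the P stalk, and the extremes of each other list. Others are said to be chosen after their values were seen. A few genes that this rule names are not reported here. The members and lists were chosen with earlier results of these data known. Promoter sequences are from RefSeq (GRCh38.p14). Other steps used Python 3.11.15, pandas 2.3.3, numpy 2.4.6 and matplotlib 3.10.9.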

Additional observations from a re-analysis of the deposited data

Results flagged for a closer look

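The effects below differed between the lines by a test of the difference itself, the MDA-MB-231 value minus the Hs-578T value on the log2 scale in limma over all tested genes, and no explanation was weighed. For the ERK5-ko label, RPL22L1 differed by −1.37 and RPL39L by −0.69 (adjusted p = 0.00202 and 0.0197, limma), with the more negative change in MDA-MB-231. The RPL39L difference lost its call without Hs-578T ERK5-ko 2, MDA-MB-231 ERK5-ko 2 or either MDA-MB-231 parental library, whereas that of RPL22L1 kept it with any 1 library left out. RPL13 differed by 0.95 and RPL12 by 0.79 (adjusted p = 0.00352 and 0.00667, limma), with the more negative change in Hs-578T. For MEK5DD, RPL39L differed by 1.23, RPL13 by 1.01 and RPL23 by 0.68 (adjusted p = 0.000711, 0.00229 and 0.00469, limma). RPL39 differed by −1.12 and RPL17 by −0.75 (adjusted p = 0.0363 and 0.0245, limma), and both lost the call without any 1 MDA-MB-231 parental or MEK5DD library or without Hs-578T parental 2, and RPL39 also without Hs-578T MEK5DD 1 or any 1 library labelled ERK5-ko. Hs-578T parental 1 and MEK5DD 1, which stood apart in member levels and in their trend with gene length, enter all of the MEK5DD differences, and parental 1 enters those for the ERK5-ko label. The comparisons of a line share its parental libraries.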

How the results depend on the processing

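All 40 named log2 fold changes kept their sign under each of 28 alternatives. Of 1120 such values, 985 stayed on the same side of the threshold, 74 lost and 61 gained the call. For the sign, many alternatives were no test, because they could not move a given fold change. These were the replicate block, other filters or gene types, a fit of only the libraries compared, and leaving out libraries outside the comparison. Most named values were also chosen as extremes of these same data. Depth limits RPL10L, RPL3L and the chromosome 7 row of RPL41, which had few reads in each library. Where a cause is not shown by a value here, the cause was not tested. In the following, counts are of members higher or lower for the ERK5-ko label and MEK5DD against parental cells, for MDA-MB-231 against Hs-578T parental cells, and for differences between the lines. Shares of all tested genes are given above for some of these fits only, so a changed count need not concern members alone.

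With the replicate block, which pairs same-numbered libraries, MDA-MB-231 ERK5-ko-labelled counts were 2 higher and 4 lower, Hs-578T ERK5-ko-labelled lower 24, MDA-MB-231 MEK5DD higher 47, and differences higher 27 (ERK5-ko) and 16 (MEK5DD), and the block moved no other count by over 1.5 times. Length correction gave MDA-MB-231 ERK5-ko-labelled 3 higher, 5 lower and a median of 0.068, Hs-578T ERK5-ko-labelled higher 7, MDA-MB-231 MEK5DD higher 37, parental higher 5, and differences lower 8 (ERK5-ko) and higher 21 (MEK5DD). With the replicate block added to it, these were 5 and 9 with a median of 0.068, 10 higher and 19 lower, 52 higher, 14 higher and 2 lower for Hs-578T MEK5DD, 6 parental, and 20 and 11 (ERK5-ko) and 28 and 5 (MEK5DD) for differences.

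Length and GC correction gave MDA-MB-231 ERK5-ko-labelled 4 and 5, Hs-578T ERK5-ko-labelled higher 6, MDA-MB-231 MEK5DD higher 33 with a median of 0.25, Hs-578T MEK5DD 5 and 2, and differences lower 8 (ERK5-ko) and 19 and 4 (MEK5DD). With the replicate block added these were 7 and 8, 9 and 26, 45 (median 0.25), 16 and 3, parental higher 4, 25 and 9, and 25 and 6. Fitting only the libraries compared gave MDA-MB-231 ERK5-ko-labelled 2 and 5, Hs-578T ERK5-ko-labelled higher 1, MDA-MB-231 MEK5DD higher 65, Hs-578T MEK5DD 0 and 0 by limma, and differences higher 23 (ERK5-ko) and lower 0 (MEK5DD). Without both divergent Hs-578T libraries the counts were 18 and 9 in MDA-MB-231 ERK5-ko-labelled, higher 14 in Hs-578T ERK5-ko-labelled, higher 67 in MDA-MB-231 MEK5DD, 6 and 5 in Hs-578T MEK5DD, higher 12 between parental lines (median −0.28), and 24 and 15 (ERK5-ko) and higher 35 (MEK5DD) for differences.

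The fold limits of above 1.5 or below 0.5 left MDA-MB-231 ERK5-ko-labelled lower 1, Hs-578T ERK5-ko-labelled 1 and 1, MDA-MB-231 MEK5DD 5 and 0, Hs-578T MEK5DD 0 and 0, parental 1 and 15, and 1 lower in each difference. Median-ratio scaling gave MDA-MB-231 ERK5-ko-labelled higher 1 (median 0.18), MDA-MB-231 MEK5DD lower 0 (median 0.36) and parental higher 1 (median −0.73). Quantile normalization gave MDA-MB-231 ERK5-ko-labelled lower 5 (median 0.030), Hs-578T ERK5-ko-labelled 5 and 17, a MDA-MB-231 MEK5DD median of 0.23 and parental higher 10. The 2 MDA-MB-231 MEK5DD lower calls became 1 with all gene types or a pseudocount of 0.1 and 0 with no filter or with scaling to genes that are not members. With all gene types or no filter 1 MEK5DD difference was lower, with no filter 1 Hs-578T MEK5DD member was higher, and limma voom gave 0 lower there.

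Leaving out 1 library at a time gave MDA-MB-231 ERK5-ko-labelled 0 to 2 higher and 1 to 4 lower with medians of 0.037 to 0.14, Hs-578T ERK5-ko-labelled 1 to 4 and 3 to 24, MDA-MB-231 MEK5DD 8 to 44 and 0 to 2, Hs-578T MEK5DD 0 to 37 and 0 to 6 with medians of −0.16 to 0.39, parental higher 1 to 3 with medians of −0.69 to −0.28, and differences of 4 to 26 and 2 to 6 (ERK5-ko) and 4 to 36 and 0 to 7 (MEK5DD).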
